A study of Mus musculus with 2 samples.

Results

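Olig2 peaks of the adult mouse spinal cord were examined at 38 autophagy and lysosome genes: 25 genes that build or load the autophagosome, 11 genes of lysosomal membranes and the lysosomal lumen, and 2 transcription factors that control them, Tfeb and Tfe3. A gene counted as bound when the deposited list named it as the nearest gene of at least 1 peak. By this rule 14 of the 38 genes were bound, with 14 of the 4215 peaks of the list.

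Chromatin was prepared from entire spinal cords of C57BL/6 males (age 6 weeks, ketamine/xylazine anesthesia, PBS perfusion). Each immunoprecipitation (IP) used an anti-Olig2 antibody raised in rabbit on the combined tissue of 5 animals, so single animals cannot be told apart. The Input Control, sheared chromatin of the same tissue without IP, is not analysed here. The authors pooled 2 experiments before calling peaks, so there is a single list, no replicate and no test over samples, and every comparison below is a description of that list. Whole tissue was used, so the cells that carry a given peak cannot be told apart, and the list holds no measure of expression.

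Autophagy encloses cytoplasm, damaged organelles and protein aggregates in a double membrane, the autophagosome, which then fuses with the lysosome, where acid hydrolases break down the cargo. A kinase complex around Ulk1 starts the process, a lipid kinase complex marks the membrane with phosphatidylinositol 3-phosphate, and a conjugation system attaches the Atg8-like proteins (LC3 and GABARAP) to the growing membrane. Tfeb and Tfe3 are basic helix-loop-helix leucine zipper factors that raise the transcription of lysosomal and autophagy genes through sites built around CACGTG. Olig2, a basic helix-loop-helix factor of the oligodendrocyte lineage, also binds E-boxes (CANNTG). In myelinating cells the lysosome takes part in the turnover and trafficking of myelin components.

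The peaks of bound genes fell into sequence classes, shown here by the genes that represent them. Sequences are from the GRCm38.p6 reference (the assembly of mm10), printed 5′ to 3′ on the strand of the named gene. The first set holds the peaks with an E-box of the form CAGCTG, the form contained in the top word of the motif found most often by the authors' search (the E-box motif, in 60.0% of all peaks), together with the peak of Tfeb, whose E-box is CAGATG. Capitals mark every CANNTG. For Sqstm1 only the 30 bases around the motif are shown, because the peak lies in the 5′ untranslated exon.
Sqstm1 (chr11:50210771-50210800, minus strand): gccgccgctgccCAGCTGtttcgtccgtac
Map1lc3a (chr2:155294022-155294072, plus strand): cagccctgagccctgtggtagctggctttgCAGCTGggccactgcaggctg
Hexa (chr9:59537921-59537971, plus strand): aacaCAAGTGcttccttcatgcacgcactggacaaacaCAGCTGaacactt
Npc2 (chr12:84752360-84752410, minus strand): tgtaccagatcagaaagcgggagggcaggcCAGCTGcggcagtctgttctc
Tfeb (chr17:47763096-47763146, plus strand): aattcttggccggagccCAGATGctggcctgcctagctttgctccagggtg

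The second set shows promoters whose peak carried CACGTG, the core of the sites of Tfeb and Tfe3, again with that word in capitals. These are RefSeq promoter stretches that end at the base before the annotated gene start, and the peaks lie at their right-hand end (Lamp1) or within them (Atg3).
Lamp1 (chr8:13158911-13159160, plus strand): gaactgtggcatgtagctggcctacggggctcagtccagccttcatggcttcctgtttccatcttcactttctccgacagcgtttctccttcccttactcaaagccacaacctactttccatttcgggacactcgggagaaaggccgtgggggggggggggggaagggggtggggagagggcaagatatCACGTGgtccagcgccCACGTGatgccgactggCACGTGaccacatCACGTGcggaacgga
Atg3 (chr16:45158674-45158828, plus strand): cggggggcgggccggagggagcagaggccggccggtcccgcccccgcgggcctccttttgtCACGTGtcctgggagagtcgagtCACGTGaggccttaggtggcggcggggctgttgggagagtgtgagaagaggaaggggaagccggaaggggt

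The third set shows promoter peaks in which neither CAGCTG nor CACGTG lies within the 51 bp. Capitals mark the words that the authors' motif search listed for each peak. For Atg5, whose peak lies in untranslated exon, and for a peak beside Atg13 that the list assigns to Harbi1, only the 30 bases around the word are shown.
Wipi1 (chr11:109611862-109611912, minus strand): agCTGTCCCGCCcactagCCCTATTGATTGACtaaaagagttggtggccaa
Map1lc3b (chr8:121590210-121590260, plus strand): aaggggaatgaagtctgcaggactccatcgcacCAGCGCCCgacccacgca
Atg13/Harbi1 (chr2:91710829-91710858, minus strand): cttccgcgtCAGCGCCCgccccacgccgcg
Atg5 (chr10:44268329-44268358, plus strand): tggtcTTGGTGACGTCAtctccgggcgccg
Atg16l1 (chr1:87755892-87755942, plus strand): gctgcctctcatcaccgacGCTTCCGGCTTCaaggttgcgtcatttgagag

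To ask how often these genes were bound, their share was set beside that of all 21900 protein-coding genes of the RefSeq annotation. Of the 38 genes, 14 were bound (36.8%, 95% exact interval 21.8 to 54.0%), against 3082 of all protein-coding genes (14.1%). The interval is a Clopper-Pearson interval over genes and covers counting error only. The genes were chosen with earlier results of these data known. The interval does not cover that choice, and the share is no unbiased measure of enrichment. The share was above the background both for peaks within 1 kb of the transcription start site (TSS), with 7 genes (18.4%) against 7.32%, and for peaks farther away, with 7 genes (18.4%) against 7.59%. Each bound gene had a single peak, while 16.0% of all bound protein-coding genes had 2 or more.

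The share was above the background at a score of at least 10, but too few peaks reached a score of 20 to place it there. The score is the peak strength deposited by the authors, on a scale that is not named, with a median of 11.6 over all peaks. With peaks of a score of at least 10, 9 of the 38 genes were bound (23.7%), against 8.89% of all protein-coding genes. With a score of at least 20, only Wipi1 was bound (2.63%, 95% exact interval 0.0666 to 13.8%), against 3.84%. This interval reaches well to both sides of 3.84%. The stretch of genome nearest to the gene start, which sets how much sequence can hold a peak of a gene, had a median of 39.5 kb for the 38 genes, 57.1 kb for the bound and 30.4 kb for the others, against 49.4 kb for all protein-coding genes. The part of this length in the counts was not tested.

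**Figure D1:**
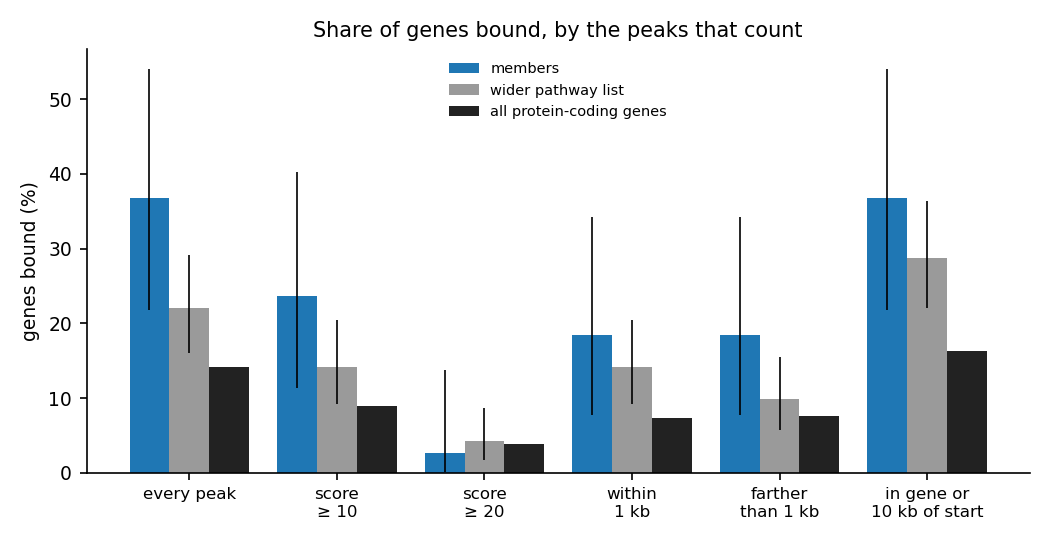
Share of genes bound (y axis, percent) among the 38 autophagy and lysosome genes, the 163 genes of a wider pathway list and all protein-coding genes, for 6 rules on which peaks count (x axis). Error bars are 95% exact intervals. The members lie above all protein-coding genes in 5 of the rules and below them at a score of at least 20, where 2.63% of members and 3.84% of all genes were bound.

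The shares bound in the 3 classes had wide, overlapping intervals, so the classes can be called neither alike nor different. Over all protein-coding genes the share was 14.1%. The few peaks of each class were counted by place. Of the 25 autophagosome genes 9 were bound (36.0%, 95% exact interval 18.0 to 57.5%) and of the 11 lysosomal genes 4 (36.4%, 10.9 to 69.2%). Of the 2 transcription factors 1 was bound (50.0%, 1.26 to 98.7%). Among autophagosome genes 6 of 9 peaks lay within 1 kb of the TSS, with a median distance of 233 bp. Over all peaks with a nearest gene 41.0% lay within 1 kb. Among lysosomal genes 1 of 4 peaks did, with a median distance of 9810 bp, and the single transcription factor peak did not. With so few peaks the difference between classes was not tested.

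**Figure D2:**
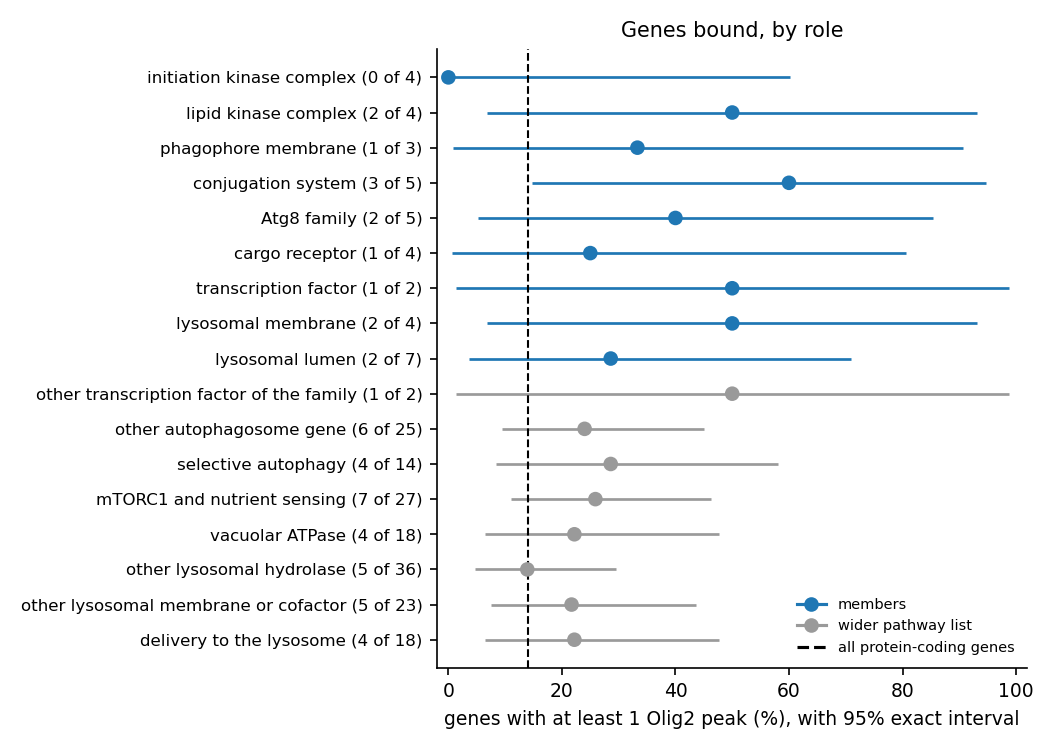
Percentage of genes bound (x axis) for each role (y axis, with bound genes and genes in the role), as points with 95% exact intervals. Blue points are the 38 members, grey points the wider pathway list, and the dashed line marks the 14.1% of all protein-coding genes. The conjugation system has the highest share among members (3 of 5 genes), and the initiation kinase complex has none of 4.

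Tfeb, the first of the transcription factors, had a peak with a score of 17.1 (rank 1333 of the list) in intron 1 of 8 of the gene, at -22623 bp from the deposited TSS. In GRCm38.p6 another annotated start of Tfeb lies closer, and the peak is 3941 bp downstream of it. The peak carried the E-box motif of the list, with the word CCCAGATG. Tfe3, on the X chromosome, was the nearest gene of no peak, and the closest peak lay 312287 bp from its start.

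None of the 4 genes of the initiation kinase complex was bound: Ulk1 and Ulk2, its kinases, and Atg13 and Atg101, its scaffold subunits (0 of 4, 95% exact interval 0.0 to 60.2%). A peak nevertheless stood at the promoter of Atg13. It lay 248 bp upstream of the Atg13 start and at -105 bp from the TSS of Harbi1, to which the list assigned it (score 12.3, rank 2030). A peak assigned to Ep400 lay 39352 bp from the start of Ulk1, and a peak assigned to Nr4a1 12537 bp upstream of Atg101 (score 27.6).

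Both subunits that direct the lipid kinase to different membranes were bound, far from their starts. Uvrag, which belongs to the complex acting on endosomes and maturing autophagosomes, had a peak in intron 5 of 14 at +67002 bp with a score of 17.0 (chr7:99074117-99074167). This peak had no CANNTG in the 200 bp around its center, although it carried a hit of the E-box motif with the word ACCGGCTG. Atg14, which targets the complex to sites of autophagosome formation, had the weakest peak of the group (score 3.48, rank 4146), in intergenic sequence at +34767 bp (chr14:47533642-47533692). In GRCm38.p6 the start of another annotated gene, Gm35166, lies closer to this peak, at 25458 bp. Becn1, the scaffold of both complexes, and Pik3c3, the lipid kinase itself, were not bound, and the peak closest to the Pik3c3 start lay 1645714 bp away.

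At the growing membrane, Wipi1 had the strongest peak of all 38 genes. Wipi1 belongs to the proteins that bind phosphatidylinositol 3-phosphate. Its peak lay in the promoter at -498 bp with a score of 21.6, rank 891, the only one above the upper quartile of all scores (19.98). The 51 bp hold hits of 3 motifs other than the E-box motif, and a CAGCTG straddles the left end of the peak as printed above. Wipi2, its paralog, and Atg9a, the transmembrane lipid scramblase, were not bound, with the closest peaks at 181258 bp and 11673 bp.

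Within the conjugation system, 3 of 5 genes were bound, all at the promoter and all with scores below the lower quartile of the list (7.76). Atg5, which is joined to Atg12, had a peak at -4 bp with a score of 7.67. Atg16l1, which binds that conjugate and places it on the membrane, had a peak at -94 bp with a score of 5.89. Atg3, the E2-like enzyme that transfers LC3 to its lipid, had a peak at -61 bp with a score of 7.41. None of these peaks carried the E-box motif of the list. The Atg5 peak held a TGACGTCA-type word, the Atg16l1 peak a word with TTCCGG, and the Atg3 peak a word ending in CACGTG, each from a different motif. The promoter of Atg3 is shared with Slc35a5, whose start lies 95 bp from the peak center, and the deposited annotation credits the promoter to Slc35a5 while the distance credits the peak to Atg3.

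The remaining genes of the conjugation system, Atg7 and Atg12, were not bound by the rule. Atg7 is the E1-like enzyme that activates both Atg12 and LC3. An intron of Atg7 nevertheless held a peak that was stronger than that of any bound member (score 45.7, rank 199, chr6:114846519-114846569), 203417 bp downstream of the Atg7 start, with the E-box motif. The list assigned it to Vgll4, at +75208 bp from the Vgll4 TSS.

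Of the 5 genes of Atg8-like proteins 2 were bound, Map1lc3a and Map1lc3b, which encode LC3 proteins, and Gabarap, Gabarapl1 and Gabarapl2 were not. When any peak inside a gene or within 10 kb of its start counted, the 2 bound genes were Gabarap and Map1lc3b. Map1lc3a had a peak with a score of 18.7 at +17683 bp, in intron 10 of 11 of the neighboring gene Pigu, with CAGCTG 7.5 bp from its center. Map1lc3b had a promoter peak at -233 bp with a score of 11.2, without the E-box motif. Its word CAGCGCCC recurs in the peak beside Atg13, as printed above, and is a form of a motif carried by 146 of all peaks (3.46%). For Gabarap, a peak assigned to Phf23 lay 4341 bp from the gene start (score 10.9). It lay outside Gabarap, in the promoter of Phf23 at -55 bp from the Phf23 TSS. The closest peaks of Gabarapl1 and Gabarapl2 lay 687667 bp and 51593 bp away.

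Of the 4 cargo receptors, which link ubiquitinated cargo to LC3, only Sqstm1 was bound. Sqstm1 encodes the receptor of ubiquitinated aggregates that is itself degraded by autophagy. Its peak had a score of 18.9 (rank 1110) at +30 bp, with CAGCTG 4.5 bp from the center. It was the only promoter peak of the 38 genes with CAGCTG wholly inside the 51 bp. Optn, Nbr1 and Tax1bp1 were not bound, with the closest peaks between 113398 and 618736 bp from their starts.

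**Figure D3:**
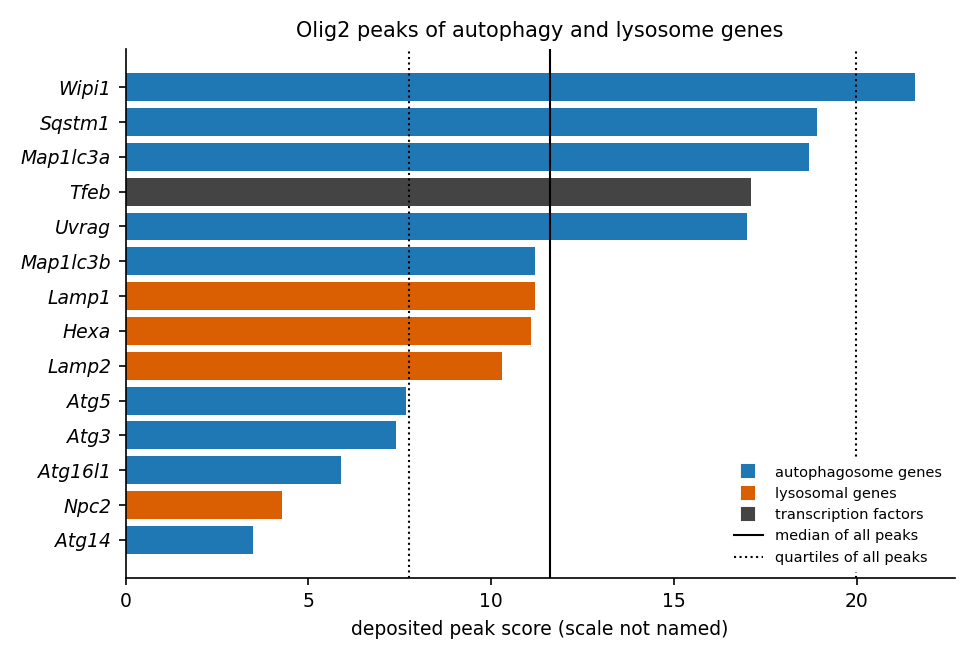
Deposited peak score (x axis, scale not named) of the 14 peaks of autophagy and lysosome genes (y axis), colored by class, with the median (solid line) and the quartiles (dotted lines) of all 4215 peaks. Wipi1 alone passes the upper quartile of 19.98, and 9 of the 14 peaks lie below the median of 11.6.

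On the lysosomal side, both LAMP genes, which encode the abundant glycoproteins of the lysosomal membrane, had a peak. The Lamp1 peak covered the gene start, at +35 bp from the deposited TSS, with a score of 11.2. The Lamp2 peak lay in intron 3 of 8 at +17898 bp with a score of 10.3 (chrX:38438537-38438587) and lacked the E-box motif. In GRCm38.p6 the start of another annotated gene, LOC115489130, lies slightly closer to it, at 17680 bp. Mcoln1, the lysosomal calcium channel, and Npc1, the membrane transporter of cholesterol, were not bound.

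Of the 7 genes of the lumen 2 were bound, neither within 1 kb of the TSS. Hexa, the alpha subunit of beta-hexosaminidase, had a peak at -1721 bp with a score of 11.1, which in GRCm38.p6 lies within Tmem202. In that assembly the closest start of Hexa is 1594 bp from the peak and that of Tmem202 1728 bp. Npc2, which hands cholesterol to Npc1, had a weak peak at +20727 bp with a score of 4.29 (rank 4059). The start of Isca2 lies almost as close to it, at 20845 bp. The proteases Ctsb, Ctsd and Ctsl, the sialidase Neu1 and the alpha-glucosidase Gaa had no peak. Their closest peaks lay between 37096 bp (Neu1) and 802621 bp (Ctsl) from the gene start. Of all 24 members that were not bound, 15 had no peak within 100 kb of the start. The same share over all protein-coding genes that were not bound was not computed, so these distances cannot be called particular to the members.

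The peaks of these genes had a median score close to that of the list. Their median score was 11.2, against 11.6 for all peaks, with a range from 3.48 to 21.6. A score of at least 20 was reached by 1 of 14 (7.14%), against 24.8% of all peaks, a share that rests on 1 peak. Of the 14 peaks 7 lay within 1 kb of a TSS (50.0%, against 41.0% of all peaks with a nearest gene), of which 5 were upstream, and 6 lay farther than 10 kb (42.9%, against 43.3%). The median absolute distance was 1110 bp, against 5318 bp for all peaks. The members' median is the midpoint between the peaks of Wipi1 (-498 bp) and Hexa (-1721 bp), so it depends on single peaks.

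**Figure D4:**
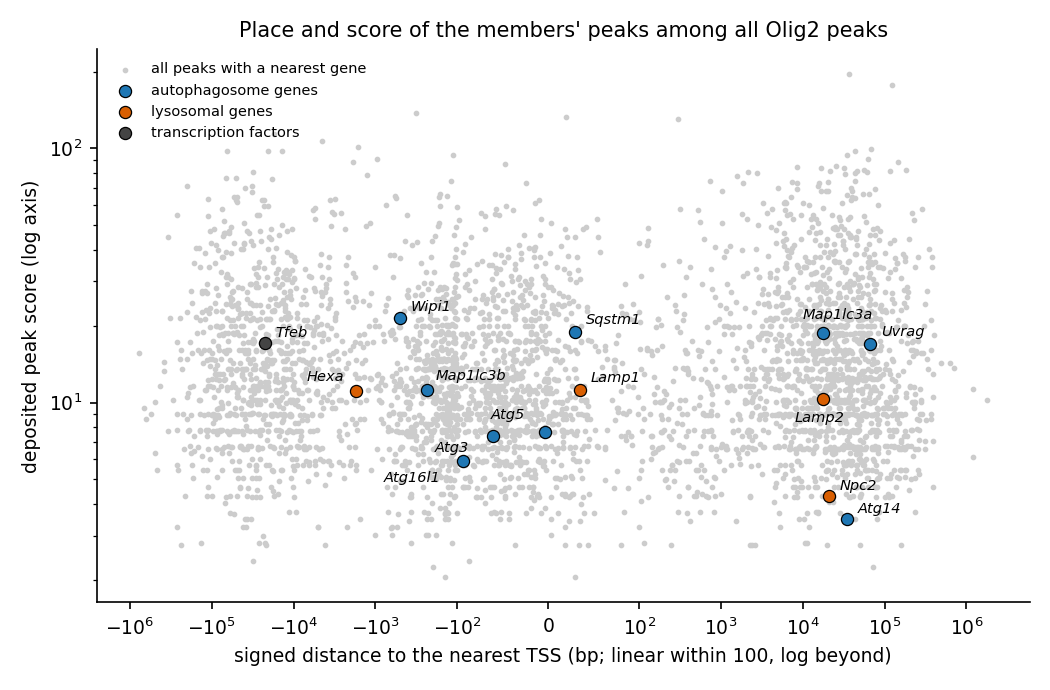
Signed distance to the nearest TSS (x axis, bp, linear within 100 bp and logarithmic beyond) against the deposited peak score (y axis, logarithmic) for all peaks with a nearest gene (grey) and the 14 peaks of autophagy and lysosome genes (colored by class). The members' peaks fall inside the cloud of all peaks, with 7 within 1 kb and none above a score of 21.6.

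The E-box motif followed distance, as it did over the whole list. It was carried by 8 of the 14 peaks (57.1%), against 60.0% of all peaks. Within 1 kb of the TSS 2 of 7 carried it (28.6%, against 33.9% of all peaks there), namely Sqstm1 and Lamp1. Farther away 6 of 7 did (85.7%, against 78.2%), with Lamp2 the exception. Hits of this motif need not hold an E-box. The word AAGCTGGC at Lamp1 and Atg14 and the word ACCGGCTG at Uvrag do not contain CANNTG.

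The forms CAGCTG and CACGTG of the E-box were counted separately. CAGCTG, searched on both strands, was present in the 51 bp of 4 of the 14 peaks (28.6%, against 32.9% of all peaks). CACGTG, another form of CANNTG, was present in 2 (14.3%), Lamp1 and Atg3, against 95 of all 4215 peaks (2.25%). In 200 bp around the center it was present in 3 (21.4%), with Atg5 the third, against 7.28%. No peak of the 14 had both forms in this window. Around the Lamp1 peak the 200 bp held 6 copies of CACGTG, of which 4 lie in the printed promoter. The longer palindrome TCACGTGA, which contains CACGTG, was present in 200 bp around the peaks of Lamp1 and Atg3 (14.3%, against 1.40% of all peaks). These shares rest on 2 or 3 peaks and are given as a description.

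**Figure D5:**
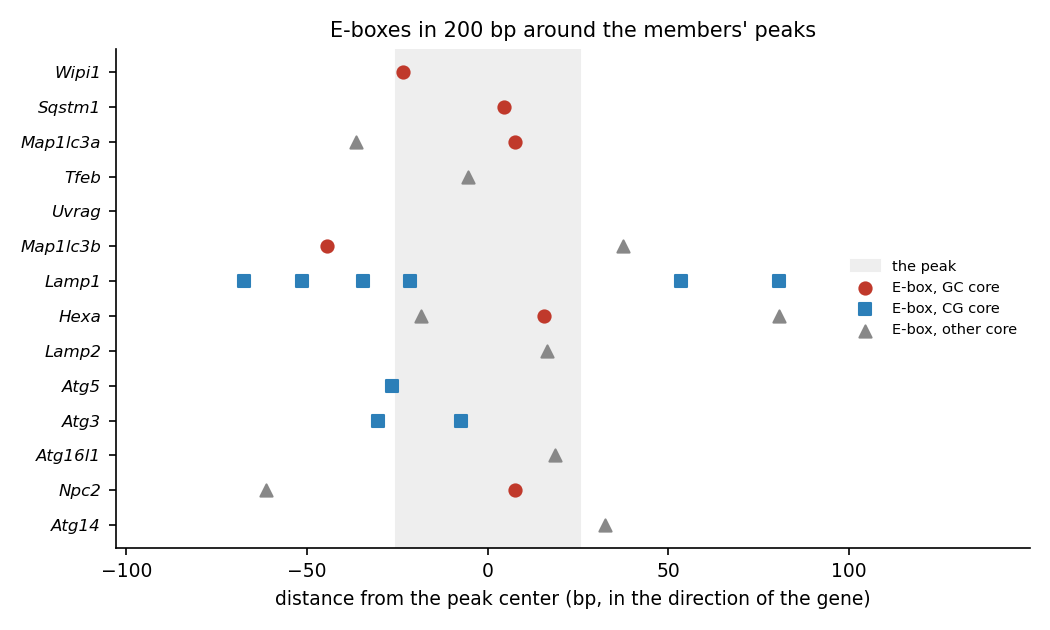
Positions of E-boxes (points) in 200 bp around the centers of the 14 peaks (x axis, bp from the peak center in the direction of the gene, with the 51 bp peak shaded), 1 gene a line in order of score. Red circles are E-boxes with a GC core (CAGCTG), blue squares those with a CG core (CACGTG) and grey triangles other forms of CANNTG. The CG core is seen at Lamp1 (6 copies), Atg5 and Atg3 only, and Uvrag has no E-box.

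CACGTG in the promoter did not separate bound from other members. RefSeq promoters, from 250 bp before to 50 bp after the gene start, were at hand for 31 of the 38 genes, and 9 of them held CACGTG (29.0%), against 8.91% of 17492 protein-coding genes. Of these 9, 4 were bound, among 12 bound genes with a promoter. They were Lamp1, Atg3 and Atg5, whose peaks lie at the promoter, and Atg14, whose peak does not. The other 5 (Atg7, Ctsd, Ctsl, Gaa and Mcoln1) were among 19 genes that were not bound. TCACGTGA occurred in the promoters of Atg3, Ctsd and Mcoln1 (9.68%, against 1.41%), while the copies at Lamp1 lie downstream of the promoter window.

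The assignment to the nearest TSS left 3 peaks at members' loci under other names, those at Atg13, Atg7 and Gabarap described above. Only the Atg7 peak lies inside the member. When any peak inside a gene or within 10 kb of its start counted, 14 of the 38 genes were again bound (36.8%), against 16.3% of all protein-coding genes, but not the same ones. Atg13, Atg7 and Gabarap entered, and Map1lc3a, Npc2 and Atg14, whose peaks are distant and outside the gene, dropped out.

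A wider list of 163 genes of the same pathways, also chosen with earlier results of these data known, was counted in the same way. Of its genes 36 were bound (22.1%, 95% exact interval 16.0 to 29.2%), against 14.1% of all protein-coding genes. Of these, 23 had a peak within 1 kb of the TSS (14.1% of the list, against 7.32%). At a score of at least 20, 7 of the 163 genes were bound (4.29%, 95% exact interval 1.74 to 8.65%), against 3.84%. Apart from Mitf and Tfec, of which 1 of 2 was bound, the shares by role ran from 5 of 36 for other lysosomal hydrolases (13.9%), which is the level of the background, to 7 of 27 for genes of mTORC1 and nutrient sensing (25.9%) and 4 of 14 for selective autophagy (28.6%).

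Regulators of mTORC1, the kinase that holds autophagy and Tfeb in check on the lysosomal surface, were bound in 7 of 27 cases, 6 of them with a peak within 1 kb of the TSS. Over all protein-coding genes this was so for 1604 of the 3082 bound. With peaks inside the gene or within 10 kb of its start, 11 of the 27 were bound (40.7%), against 16.3% of all protein-coding genes. Rptor, the subunit that recruits substrates of mTORC1, had a peak at +3 bp with a score of 28.4, and Lamtor1, which anchors the Ragulator complex to the lysosome, one at +16 bp with 26.3. Both scores exceed those of all 14 members. Sesn1 and Sesn2, stress-induced inhibitors of mTORC1, had their strongest peaks at -57 bp (12.8) and -5104 bp (11.1).

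In selective autophagy Bnip3l, a mitophagy receptor, had a promoter peak at -56 bp (14.7), Fundc1 a distant one (15.6) and Wdfy3 an intronic one (10.5). Among other autophagosome genes 6 of 25 were bound, led by Wdr45b, a paralog of the WIPI proteins (26.0, at +47081 bp). It was followed by Atg9b and Atg4d (both 11.2) and Rubcn, a negative regulator of the Uvrag complex (10.9). Mitf, the factor related to Tfeb, had 2 peaks (18.6 and 17.8), neither within 1 kb, and Tfec had none.

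At the lysosome, the highest scores of hydrolases were those of Lgmn, an asparaginyl protease (25.5, with a second peak at its promoter of 9.53), the beta-mannosidase Manba (rank 1054), the heparan sulfate enzyme Naglu (score 18.3) and the beta-glucuronidase Gusb (score 9.71). Membrane proteins and cofactors were bound in 5 of 23 cases, including Psap, the precursor of the saposins (20.2), the ion channels and transporters Tpcn1 (17.8) and Clcn7 (16.1), and Scarb2 (11.4). Of the vacuolar ATPase, the proton pump of the lysosome, 4 of 18 genes were bound, all with scores below the median of the list: Atp6ap1 (8.90), Atp6v1d (8.59), Atp6v0e (5.99) and Atp6v1b2 (3.71). Among genes that deliver cargo and enzymes to the lysosome, also 4 of 18, Vps33a had the highest score (23.0, at -48 bp), before Nagpa (11.5), Vps11 (6.75) and Vps18 (5.41).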

How the data were processed

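Peaks of Olig2 ChIP from whole mouse spinal cord were read from the deposited list. Per the methods and the submitters' processing notes, BWA was used for alignment (mm10), MACS2 for peaks (fragments of 148 bp) and HOMER for annotation and motifs, all run by the authors within ChIP-Seq 1.0.2 of BaseSpace Labs. The peak score was deposited by the authors without naming its scale, so it was ranked and compared within the list only. The GC fraction deposited for each 51 bp peak equaled that of GRCm38.p6 for 4215 of 4215 peaks, and 7177 of 7177 motif hits were found there. Read depth per peak is not known, since the list holds no counts. A second sheet of 5 peaks repeated the list and was not used.

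All 38 members and 163 genes of the wider list matched RefSeq by symbol or synonym, and peaks were joined by Entrez number. Members and lists were chosen with earlier results of these data known. Shares carry exact 95% intervals, and no test was run. Words were searched on both strands of 51 and 200 bp around each peak. Named genes are all members and, of the wider list, up to 4 genes with the highest score per role, except for a result that is not reported here. The word search was tested on simulated data. Python 3.11.15, pandas 2.3.3 and scipy 1.17.1 were used.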

Additional observations from a re-analysis of the deposited data

How the results depend on the processing

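No paired analysis was possible because the list was called once on pooled reads, and no replicate could be left out. Of 42 alternatives, 24 stayed within 1.5 times the reported value and 18 did not. A score of at least 10 left 9 of 14 members bound, 5 of 9 autophagosome genes, 23 of 36 wider genes and 4 of 7 peaks within 1 kb. Over all protein-coding genes that score left 1947 of the 3082 bound. A score of at least 20 left 1 member (an autophagosome gene), 0 lysosomal genes, 0 transcription factors and 7 wider genes (4.29%, against 3.84% of all genes). Within 1 kb alone, 7 members, 1 lysosomal gene, 0 transcription factors and 23 wider genes were bound. Beyond 1 kb alone, 7 members, 3 autophagosome genes and 16 wider genes were bound. Over all protein-coding genes 1604 were bound within 1 kb (7.32%) and 1662 beyond it (7.59%). These settings count fewer peaks by construction. Searching CAGCTG in the 51 bp gave 4 peaks in place of 8 with the E-box motif. Extending loci to 50 kb raised the peaks under other names from 3 to 12. Recomputing the nearest protein-coding start added Atg101, for 15 of 38 members (39.5%), against 15.4% of all protein-coding genes. Against all 49997 annotated genes the background was 6.92%.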

Other observations

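Other words searched in the members' promoters gave values above, below and at the background. GGGCGG, a site of Sp-type factors, was present in 23 of 31 members with a RefSeq promoter (74.2%), against 49.2% of protein-coding genes. It was present in 11 of 12 bound and 12 of 19 other members. In the 51 bp of the peaks GGGCGG was held by 1 of 14 (7.14%), against 11.7% of all peaks. In 200 bp it was held by 4 (28.6%), against 31.4%. CCAAT was present in the promoters of 9 of the 31 members (29.0%), against 42.3%, and CCGGAAG in 4 (12.9%), against 12.9%. No member peak held CCAAT in its 51 bp, against 12.2% of all peaks. In 200 bp around the center 3 member peaks held it (21.4%, against 31.4%). The authors' motif with the top word TGATTGGC, which holds CCAAT on the other strand, was listed for the peaks of Wipi1, Lamp2 and Atg14. Over all peaks its share was 18.9%.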
